A study of Mus musculus with 24 samples.

Results

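The urea cycle and the enzymes that break down amino acids were followed in mouse liver by the messenger RNA of 49 genes, taken by symbol from the 23284 symbols in the expression files. All 49 were found, each at 1 locus, and all passed the filter on low values in every fit, with at least 4.81 FPKM (defined below) in every library. Liver RNA came from C57BL/6 mice, and every group carried the FoxO1lox/lox allele, in which loxP sites flank part of the gene for the transcription factor FoxO1. In the acute model, mice received through the tail vein an adeno-associated virus with the hepatocyte-active TBG promoter driving either enhanced green fluorescent protein (AAV8.TBG.eGFP, here GFP) or Cre recombinase (AAV8.TBG.Cre, here Cre), and livers were taken on day 21. In the constitutive model, FoxO1lox/lox mice without Cre (WT) were compared with Albumin-cre FoxO1-/- mice (KO), whose Cre is driven by the albumin promoter, also active in hepatocytes. Each of these 4 kinds of mice was studied after 4 h without food and after a further 1 h with food, which gave 8 groups of 3 libraries. Nothing in the labels says that the 3 libraries of a group are different animals. The p-values therefore describe the variation among these libraries only, which could be technical. The labels give no animal age.

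Amino acids that are not used for protein lose their nitrogen in hepatocytes. Carbamoyl phosphate synthetase and the cycle enzymes that follow it turn ammonia and aspartate nitrogen into urea, while transaminases and amino acid specific pathways pass the carbon skeletons to gluconeogenesis or oxidation. Many of these genes are known to be raised by fasting signals such as glucagon and lowered by feeding and insulin, and FoxO1 is a transcription factor that insulin signalling removes from the nucleus. The comparisons asked how the genes changed with loss of FoxO1, with a short meal, and with both.

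The promoter sequences of 4 members are shown because these genes form 2 pairs that fell together after refeeding. Hal and Amdhd1 act in histidine degradation and are neighbours on chromosome 10, with 6.594 kb between them and their starts facing outward. Gldc and Amt encode 2 parts of the glycine cleavage system and lie on chromosomes 19 and 9. The runs below are from the RefSeq promoter table of build GRCm38.p6, 5′ to 3′ on each gene's strand, and end at the base before the RefSeq start of transcription (Hal chr10:93488518-93488767, plus strand; Amdhd1 chr10:93540034-93540283, minus strand; Gldc chr19:30175442-30175691, minus strand; Amt chr9:108296655-108296852, plus strand, which was ended earlier, before the first annotated Amt exon). None of the printed bases lies in an exon of the GENCODE annotation. Capitals mark a match to CAAAACAA, the insulin response sequence, on either strand.
Hal: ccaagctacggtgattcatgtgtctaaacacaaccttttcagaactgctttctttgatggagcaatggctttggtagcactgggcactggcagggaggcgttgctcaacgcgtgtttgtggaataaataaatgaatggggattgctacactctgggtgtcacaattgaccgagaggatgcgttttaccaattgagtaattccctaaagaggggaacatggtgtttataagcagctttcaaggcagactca
Amdhd1: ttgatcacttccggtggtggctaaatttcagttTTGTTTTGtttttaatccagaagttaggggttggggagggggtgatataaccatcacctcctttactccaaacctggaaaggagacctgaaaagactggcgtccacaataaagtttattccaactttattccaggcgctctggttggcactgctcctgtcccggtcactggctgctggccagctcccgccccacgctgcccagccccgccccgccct
Gldc: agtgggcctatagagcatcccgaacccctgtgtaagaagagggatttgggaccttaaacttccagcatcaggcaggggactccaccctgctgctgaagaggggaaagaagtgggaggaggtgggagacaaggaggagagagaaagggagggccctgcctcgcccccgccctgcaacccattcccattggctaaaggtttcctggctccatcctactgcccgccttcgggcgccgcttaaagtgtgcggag
Amt: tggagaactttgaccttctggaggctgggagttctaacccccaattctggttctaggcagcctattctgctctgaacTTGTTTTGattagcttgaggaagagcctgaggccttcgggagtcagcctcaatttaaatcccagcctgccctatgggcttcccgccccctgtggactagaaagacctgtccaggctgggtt
Of the 49 members, 38 had an entry in the promoter table. CAAAACAA occurred within 250 bases before the start in 2 of them, Amdhd1 (from position -217) and Amt (from position -173), against 2.21% of all 32851 tabled starts. GTAAACA, a FoxO binding element, occurred in 1 member, Hibadh, against 3.17% of all starts. TGACGTCA, the cAMP response element, occurred in 0 of the 38, against 1.55% of all starts. Both strands were searched, and no member held matches to more than 1 of the 3 motifs. A match is a description of these letters and not evidence of binding.

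Values are in FPKM, fragments per kilobase of transcript scaled to the mapped fragments of the library, so that levels can be compared between genes. The deposited interval around each value implied a depth of 12.05 to 13.82 M fragments in the constitutive libraries. In the acute model, 8 libraries had 6.29 to 7.64 M and 4 had 12.87 to 15.72 M, 1 in each group (GFP fasted 3, Cre fasted 1, GFP refed 3 and Cre refed 1). Foxo1 itself, measured as a check of the labels, was 4.21 FPKM or higher in every control library and 0.571 FPKM or lower in every Cre or KO library. The hepatocyte markers Alb, Ttr, Apoa1, Trf, Serpina1a, Cyp3a11 and Fabp1 summed to 64105 to 89434 FPKM over all 24 libraries.

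The members differed widely in level. Their medians over the 24 libraries ran from 7.38 FPKM for Sdsl, a serine dehydratase-like gene, to 1378 FPKM for Gnmt, which methylates glycine with S-adenosylmethionine, and 30 of the 49 had a median of 100 FPKM or more. Next below Gnmt came Hpd of tyrosine degradation at 1146, Bhmt at 1121, the S-adenosylmethionine synthetase gene Mat1a at 947, arginase (Arg1) at 908 and Cps1 at 589 FPKM. Over the libraries, the ranges of Gnmt, Hpd, Bhmt and Mat1a each overlapped that of the next gene in this order, so these neighbours were not resolved. The lowest Arg1 value (768 FPKM) lay just above the highest of Cps1 (765 FPKM). At the other end, Sdsl was followed by Mccc1 at 11.8, Gldc at 20.9, Amt at 21.1 and Dbt at 23.0 FPKM. Replicates were close: the SD within a group was 8.29% of the mean for the median member and under 10% for 38 of the 49, against 10.6% for the median of 10682 tested genes. Bhmt at 24.9% and Got1 at 21.4% varied most, and Gcdh at 3.67% and Amdhd1 at 3.75% least. The shallowest value, of Sdsl, rested on an implied 55.1 fragments, a counting error of 13.5%, and 46 members had a counting error under 5% in every library.

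After 1 h of refeeding, more of these genes fell than rose. In the average of the 4 refeeding comparisons (log2 of FPKM + 1, limma, Benjamini-Hochberg adjusted over all genes, called at 0.05), 17 of 49 members fell and 2 rose, where 10.4% of all tested genes fell and 19.9% rose. The median change of the 49 was -0.09 on the log2 scale, against 0.04 for all genes. The estimate was below 0 for 38 members (77.6%), against 39.7% of all genes. In the plot of both averages over all 49 members, every histidine, glycine and branched chain gene lies to the left of 0 after refeeding, and the called genes with the largest falls are Hal, Bhmt, Gldc and Oat.

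**Figure D1:**
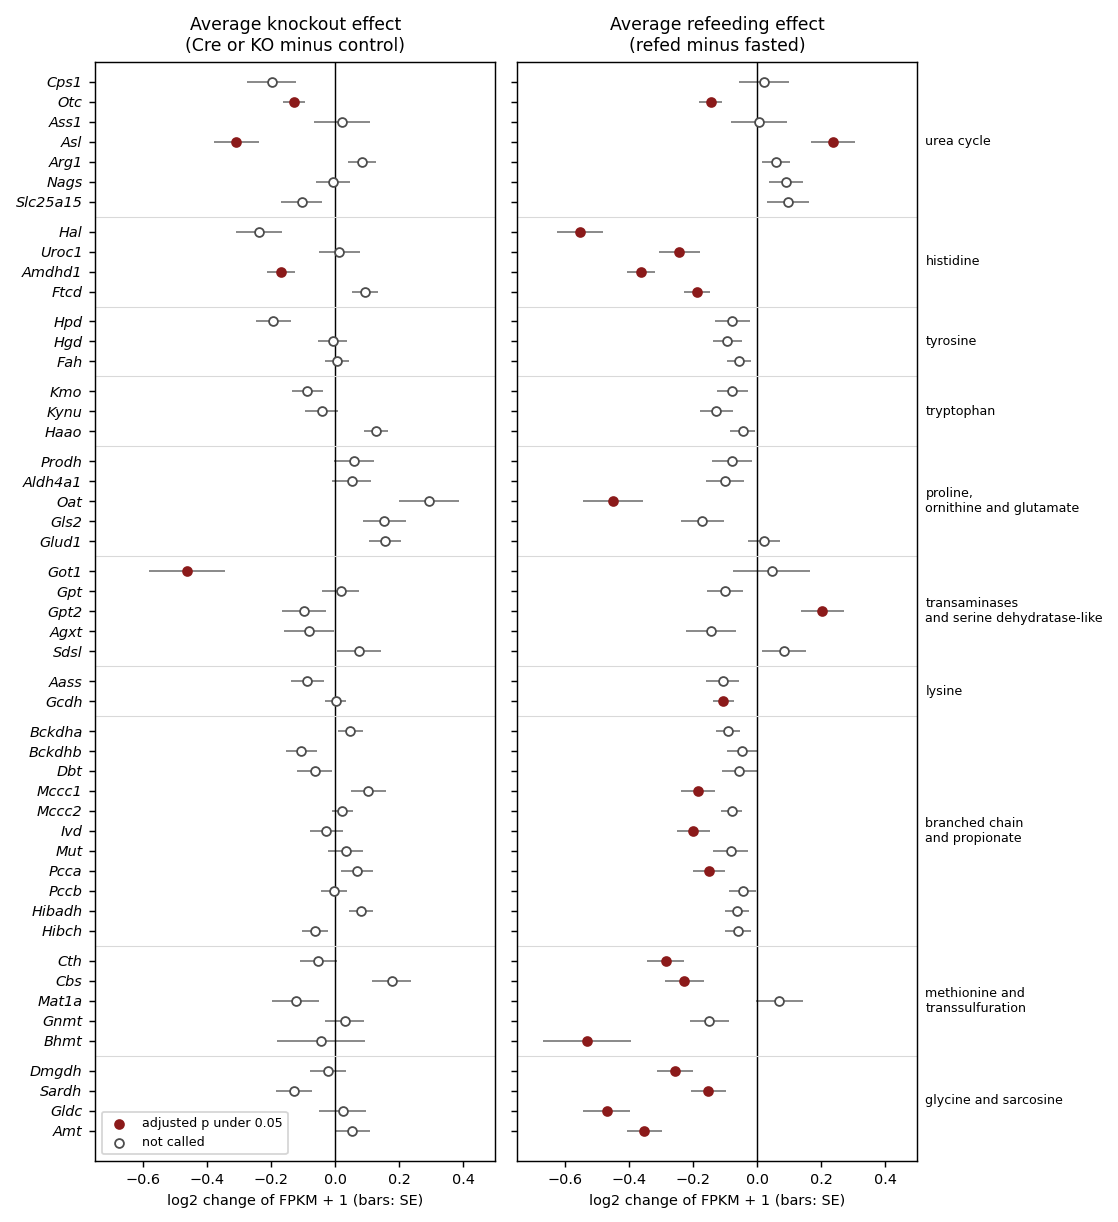
Log2 change of FPKM + 1 for each of the 49 members, averaged over the 4 knockout comparisons (left) and the 4 refeeding comparisons (right), grouped by pathway, with bars of 1 SE and filled points for adjusted p under 0.05. On the right 17 filled points lie below 0 and 2 above it, and on the left 4 lie below 0 and 0 above.

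The 4 refeeding comparisons use separate libraries and gave few calls each. In GFP livers 2 members fell and 0 rose, where 1.75% of all genes fell and 4.81% rose. In WT livers 2 members fell and 0 rose, against 0.164% and 0.154% of all genes. In KO livers 6 fell and 1 rose, against 3.68% and 2% of all genes. In Cre livers limma called 0 of 49 in either direction, where 1.15% of all genes fell and 4.3% rose. At an unadjusted p under 0.05 there were 5 of 49 members, against 2513 of 10452 genes. The fall was nevertheless shared in sign: 22 members had an estimate below 0 in all 4 comparisons, against 13.6% of all genes, and 1, Nags, was above 0 in all 4, against 23.4%. Amdhd1 was the member whose refed libraries all lay below the fasted ones in each of the 4 comparisons, which held for 1.03% of all genes. None lay above in all 4, against 1.73%. In single comparisons such separation, named for single genes below, was common. Refed libraries all lay below the fasted ones for 11 (GFP), 8 (Cre), 14 (WT) and 16 (KO) of 49 members. Of all genes, this held for 756 and 772 of 10452 (GFP, Cre) and 987 and 1787 of 10375 (WT, KO). They all lay above for 1, 1, 1 and 5 members, against 2083, 2406, 1062 and 1356 genes. The split of calls moved with the scaling of libraries: with median-of-ratios scaling the share of rising genes among all calls went from 73.3% to 46.0% in GFP livers, from 78.9% to 51.9% in Cre livers, from 48.5% to 35.4% in WT livers, from 35.1% to 47.3% in KO livers and from 65.8% to 49.5% in the average, and the members called in the average went from 17 falling and 2 rising to 26 falling and 1 rising.

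The histidine degradation genes fell after refeeding. All 4 were called in the average, by -0.56 ± 0.07 (Hal), -0.36 ± 0.04 (Amdhd1), -0.24 ± 0.06 (Uroc1) and -0.19 ± 0.04 (Ftcd) on the log2 scale (SE; adjusted p from limma of 1.57e-05, 7.21e-06, 0.00745 and 0.00201). Hal (chromosome 10, 93488768 to 93516743, mm10) encodes histidine ammonia-lyase, which releases ammonia from histidine in the step that commits it to breakdown. In acute livers Hal measured 122, 117 and 148 FPKM in the fasted GFP libraries and 65.9, 65.2 and 104 in the refed ones, and 97.3, 77.8 and 95.7 in the fasted Cre libraries and 79.2, 78.9 and 81.9 in the refed ones. In constitutive livers it measured 129, 143 and 112 FPKM in fasted WT, 81.7, 74.1 and 85.9 in refed WT, 109.6, 104 and 107 in fasted KO and 69.1, 72.8 and 60.6 in refed KO libraries. The fasted and refed libraries did not overlap in GFP, WT and KO livers, and they did in Cre livers. Hal was lower after refeeding, 1.65-fold in GFP (log2 change -0.74 ± 0.17, limma adjusted p = 0.0269), 1.59-fold in WT (-0.66 ± 0.10, 0.0256) and 1.58-fold in KO livers (-0.66 ± 0.10, 0.00831). In Cre livers the log2 change was -0.17 ± 0.17 (adjusted p = 0.586). The difference between the acute refeeding effects was 0.58 ± 0.24 with an adjusted p of 0.749, so a difference between GFP and Cre livers was not shown.

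Amdhd1 (chromosome 10, 93523338 to 93540033), the imidazolonepropionase of the third step, varied least between replicates of the 4. It measured 78.8, 80.9 and 79.5 FPKM in fasted and 55.6, 54.3 and 68.7 in refed GFP libraries, and 64.1, 62.3 and 66.8 in fasted and 46.8, 58.2 and 56.1 in refed Cre libraries. In constitutive livers it measured 88.6, 82.1 and 83.7 in fasted WT, 65.0, 64.5 and 62.0 in refed WT, 79.6, 77.3 and 74.4 in fasted KO and 63.0, 62.0 and 54.5 FPKM in refed KO libraries. The falls were 1.34-fold in GFP (log2 change -0.42 ± 0.10, limma adjusted p = 0.0352), 1.33-fold in WT (-0.40 ± 0.07, 0.0427) and 1.29-fold in KO livers (-0.36 ± 0.07, 0.0221). In Cre livers, whose log2 change was -0.26 ± 0.10, the adjusted p was 0.15.

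Uroc1 (chromosome 6, 90333289 to 90364548), the urocanate hydratase of the step between them, and Ftcd (chromosome 10, 76575648 to 76590338), which passes the formimino group to tetrahydrofolate, were called in KO livers. Uroc1 measured 127, 117 and 121 FPKM in fasted and 94.0, 84.7 and 100.3 in refed KO libraries (log2 change -0.38 ± 0.08, limma adjusted p = 0.027), and 114, 120.4 and 112 and 95.2, 81.5 and 89.3 in WT libraries (-0.38 ± 0.08, 0.0722). Ftcd measured 166, 159 and 168 in fasted and 135, 125 and 137 in refed KO libraries (-0.31 ± 0.08, 0.0406), and 161, 154 and 163 and 142, 118 and 134 FPKM in WT libraries (-0.28 ± 0.08, 0.128). For both genes the fasted and refed libraries of WT and of KO livers stood apart. In acute livers they overlapped: Uroc1 was at 114 ± 11.2 in fasted and 96.2 ± 16.6 FPKM in refed GFP livers and 99.5 ± 3.31 and 104 ± 23.1 in Cre livers, and Ftcd was 154 ± 8.9 and 138 ± 16.5 in GFP livers and 163 ± 4.14 and 162 ± 10.4 in Cre livers (mean ± SD, n = 3 each).

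**Figure D2:**
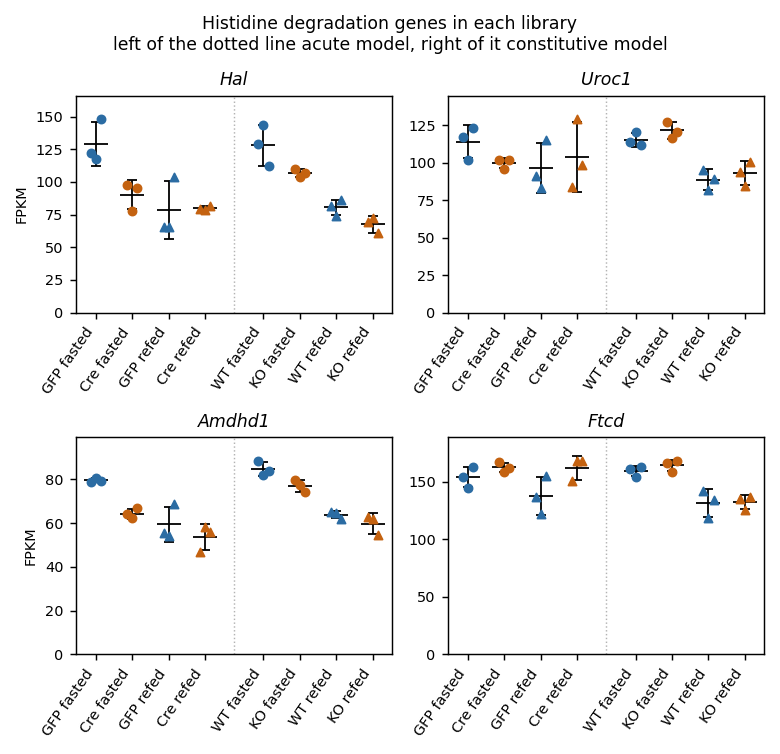
FPKM of the 4 histidine degradation genes in each library, by group (blue: GFP or WT, orange: Cre or KO; circles fasted, triangles refed), with the mean and SD of each group in black. Refed triangles lie below the fasted circles of their genotype for Amdhd1 in all 4 pairs, for Hal in GFP, WT and KO livers, and for Uroc1 and Ftcd in WT and KO livers.

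These single calls depended on few libraries. In GFP livers the calls of Hal and Amdhd1 were lost without any library but GFP refed 3 (adjusted p up to 0.089 and 0.11). In WT livers that of Hal was lost without any library but WT fasted 3 (up to 0.0794) and that of Amdhd1 without any of the 6 (up to 0.158). In KO livers Hal and Amt stayed called in all 6, while Uroc1 and Ftcd were lost without any but KO refed 3 (up to 0.108 and 0.145) and Amdhd1 and Asl without KO fasted 1, KO fasted 2 or KO refed 2 (up to 0.0931 and 0.123). The averages of Hal, Amdhd1, Uroc1 and Ftcd stayed called without any 1 of the 24 libraries.

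The glycine and sarcosine genes showed the next group of falls. All 4 members were called in the average refeeding effect: Gldc by -0.47 ± 0.07, Amt by -0.35 ± 0.05, Dmgdh by -0.26 ± 0.06 and Sardh by -0.15 ± 0.06 on the log2 scale (limma adjusted p = 0.000112, 8.78e-05, 0.00194 and 0.0429). Gldc (chromosome 19, 30098447 to 30175418) encodes the glycine decarboxylase of the cleavage system. It measured 33.4, 26.6 and 24.3 FPKM in fasted and 18.3, 17.2 and 19.0 in refed WT libraries, and 29.9, 27.5 and 29.5 in fasted and 19.7, 18.4 and 15.4 in refed KO libraries. In acute livers it measured 22.8, 21.0 and 31.4 FPKM in fasted and 16.7, 17.6 and 19.5 in refed GFP libraries, and 28.9, 19.3 and 21.8 in fasted and 22.1, 20.8 and 18.0 in refed Cre libraries. Fasted and refed libraries stood apart in GFP, WT and KO livers and overlapped in Cre livers. The fall was 1.62-fold in KO livers (log2 change -0.67 ± 0.12, limma adjusted p = 0.0132; 0.0201 to 0.0579 with 1 library left out, lost without KO fasted 1), while WT livers gave -0.59 ± 0.12 (0.0604).

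Amt (chromosome 9, 108296922 to 108301597), the aminomethyltransferase of the same complex, measured 24.4, 20.8 and 21.7 FPKM in fasted and 16.2, 16.7 and 14.9 in refed WT libraries, and 22.0, 24.1 and 22.2 in fasted and 16.1, 12.5 and 14.4 in refed KO libraries. In acute livers it measured 20.2, 21.4 and 25.3 in fasted and 19.7, 16.3 and 19.9 in refed GFP libraries, and 27.5, 20.9 and 22.6 in fasted and 22.5, 21.8 and 22.6 FPKM in refed Cre libraries. The groups stood apart in GFP, WT and KO livers, as for Gldc. In KO livers Amt fell 1.58-fold (log2 change -0.63 ± 0.10, limma adjusted p = 0.0083), and WT livers gave -0.46 ± 0.10 (0.0612). Its refeeding effect was 0.39 ± 0.11 less negative in the acute than in the constitutive model, with an adjusted p of 0.062. Dmgdh (chromosome 13, 93674436 to 93752823) and Sardh (chromosome 2, 27188393 to 27247303), which strip methyl groups from dimethylglycine and sarcosine, were called in no single comparison. The average call of Sardh was lost without any of 15 of the 24 libraries (adjusted p 0.0202 to 0.0822).

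Of the 5 genes of methionine metabolism and transsulfuration, 3 fell in the average. Bhmt (chromosome 13, 93616891 to 93637758), which makes dimethylglycine from betaine and lies 36.677 kb from Dmgdh, changed by -0.53 ± 0.14 in the average (limma adjusted p = 0.00689). Its libraries scattered: 1636, 1554 and 1180.2 FPKM in fasted and 1129, 1017 and 544 in refed GFP livers, 1498, 1074 and 1707 and 1203, 688 and 905 in Cre livers, 1911, 1032 and 1112 and 826, 1391 and 990.1 in WT livers, and 1179, 1369.6 and 1222 and 834, 1030.4 and 925 in KO livers. Fasted and refed libraries stood apart in GFP and KO livers and overlapped in Cre and WT livers. Of the transsulfuration enzymes, which turn homocysteine into cysteine, Cth (chromosome 3, 157894248 to 157925063) changed by -0.29 ± 0.06 and Cbs (chromosome 17, 31612644 to 31637141) by -0.23 ± 0.06 (adjusted p = 0.00106 and 0.00798). Cth measured 204, 193 and 199.8 FPKM in fasted and 154, 142 and 151 in refed GFP libraries, and 186, 195 and 183 in fasted and 151, 145 and 149 in refed WT libraries, with no overlap in either. The Cre libraries, 199, 151 and 219.8 fasted and 179, 172 and 160.5 refed (log2 change -0.14 ± 0.12, limma adjusted p = 0.514), and the KO libraries, 172, 152 and 166 fasted and 167, 126 and 120.4 refed (-0.26 ± 0.11, 0.165), overlapped. The log2 changes of Cbs were -0.25 in GFP, 0.02 in Cre, -0.40 in WT and -0.28 in KO livers, apart in WT livers only, and neither gene was called in a single comparison. Gnmt at -0.15 ± 0.06 and Mat1a at 0.07 ± 0.07 were not called (0.0702 and 0.499), and Mat1a was the member of the group with an estimate above 0.

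Ornithine aminotransferase (Oat, chromosome 7, 132557475 to 132576398), which moves ornithine carbon toward glutamate and is known for expression around the central vein, changed by -0.45 ± 0.09 on the log2 scale in the average (adjusted p = 0.00151). It measured 544, 502 and 535 FPKM in fasted and 574, 494 and 407 in refed GFP libraries, and 629.9, 596 and 782 in fasted and 543, 462 and 473 in refed Cre libraries. In constitutive livers it measured 326, 554 and 330.0 in fasted and 255, 314 and 259 in refed WT libraries, and 650.0, 479.6 and 578 in fasted and 436, 299 and 291 FPKM in refed KO libraries. The fasted and refed libraries stood apart in Cre, WT and KO livers and overlapped in GFP livers, and no single comparison was called (adjusted p of 0.061 to 0.657). The other genes of proline and glutamate breakdown, Prodh, Aldh4a1, Gls2 and Glud1, gave -0.08, -0.10, -0.17 and 0.02 in the average, and none was called.

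**Figure D3:**
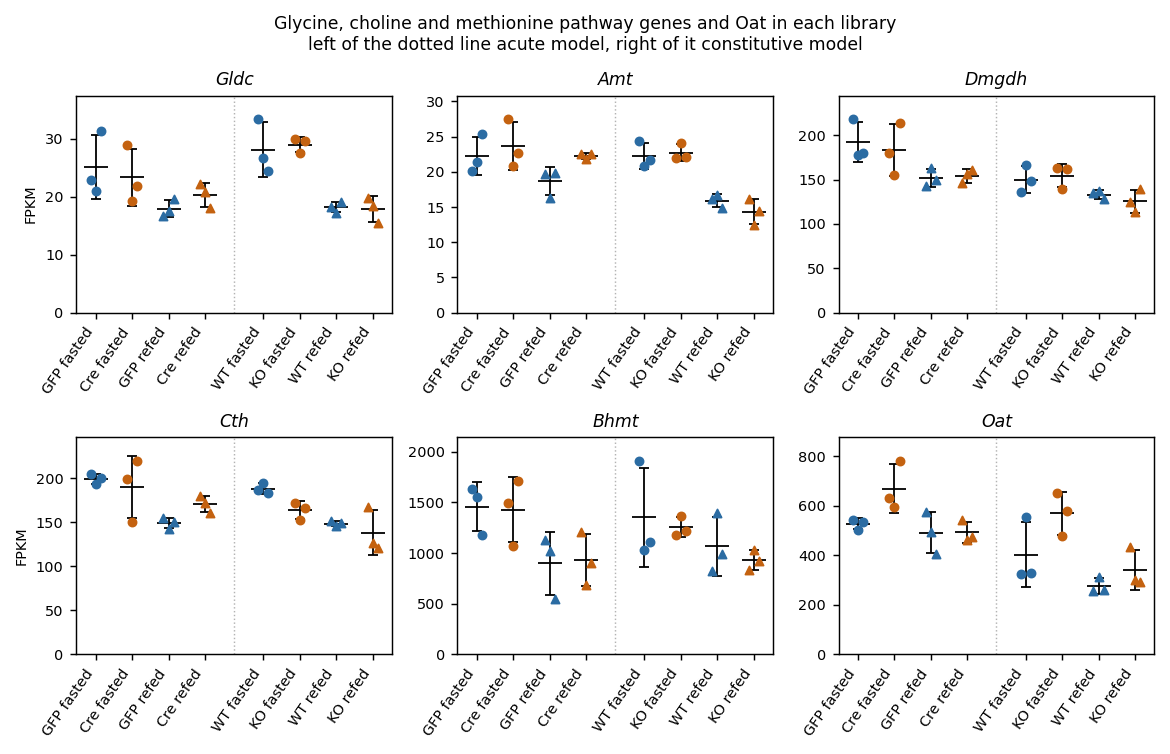
FPKM of Gldc, Amt, Dmgdh, Cth, Bhmt and Oat in each library, by group (blue: GFP or WT, orange: Cre or KO; circles fasted, triangles refed), with the mean and SD of each group in black. For Gldc and Amt the refed triangles lie below the fasted circles in GFP, WT and KO livers, while the Bhmt values of a group spread widely.

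Of the 11 branched chain and propionate genes, 3 fell in the average refeeding effect and 8 were not called. All 11 average estimates were below 0 (median -0.08 on the log2 scale), but single comparisons were mixed: 8 were below 0 in GFP, 11 in Cre, 6 in WT and 10 in KO livers, and 5 in all 4. Ivd (chromosome 2, 118862000 to 118881357), the isovaleryl-CoA dehydrogenase of leucine breakdown, changed by -0.20 ± 0.05, Mccc1 (chromosome 3, 35959306 to 36000678) of methylcrotonyl-CoA carboxylase by -0.19 ± 0.05, and Pcca (chromosome 14, 122534328 to 122889944) of propionyl-CoA carboxylase by -0.15 ± 0.05 (limma adjusted p = 0.0059, 0.0143 and 0.0285). Ivd was 77.0 ± 4.2 FPKM in fasted and 61.5 ± 4.24 in refed KO livers (mean ± SD, n = 3), its widest gap. The partner subunits gave -0.08 (Mccc2, adjusted p = 0.0638) and -0.05 (Pccb, 0.425). Bckdha, Bckdhb and Dbt, subunits of the branched chain ketoacid dehydrogenase, and Mut, Hibadh and Hibch lay between -0.09 and -0.05 and were not called. Pcca lost its call without any of 6 of the 24 libraries (GFP fasted 3, Cre fasted 1, GFP refed 2, Cre refed 1, KO fasted 2 and KO refed 2; adjusted p up to 0.0545). In lysine breakdown, Gcdh (chromosome 8, 84886387 to 84893921) changed by -0.11 ± 0.03 (adjusted p = 0.0211) and Aass, at -0.11, was not called (0.117). The tyrosine genes Hpd, Hgd and Fah lay between -0.09 and -0.06 and the tryptophan genes Kmo, Kynu and Haao between -0.13 and -0.05. limma called 0 of these 6. Only 1 of them, Kynu, had an unadjusted p under 0.05, against 4505 of 10682 genes.

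Among the transaminases, Gpt2 (chromosome 8, 85492617 to 85527558), the mitochondrial alanine aminotransferase, was called upward in the average refeeding effect (0.20 ± 0.07, limma adjusted p = 0.0298). It was 98.9 ± 18.2 FPKM in fasted and 132 ± 13.9 in refed WT livers and 101 ± 3.68 and 126 ± 10.01 in KO livers, without overlap, while in acute livers it was 109 ± 13.2 and 127 ± 12.8 with GFP and 109.8 ± 22.2 and 97.6 ± 1.65 with Cre, with overlap (mean ± SD, n = 3 each). The call was lost under median-of-ratios scaling (log2 change 0.16, adjusted p = 0.0938) and without any of GFP fasted 1, Cre fasted 1, Cre fasted 2, WT fasted 3, WT refed 2 or KO refed 2 (adjusted p up to 0.0567). Got1, Gpt, Agxt and Sdsl gave 0.04, -0.10, -0.14 and 0.08, with no call.

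No shared fall was seen in the urea cycle. Of its 7 genes, 1 fell, 1 rose and 5 were not called in the average refeeding effect. Of all genes, 10.4% fell and 19.9% rose, so with 7 genes these counts do not set the cycle apart. Of the 7, 1 had an estimate below 0, against 39.7% of all genes. Asl (chromosome 5, 130011503 to 130024331), argininosuccinate lyase, rose, by 0.24 ± 0.07 in the average (limma adjusted p = 0.0146) and by 0.58 ± 0.13 in KO livers (0.0308). It measured 219, 232 and 281 FPKM in fasted and 335, 395 and 361 in refed KO libraries, without overlap, against 311, 394 and 276 and 346, 365 and 394 in WT libraries, which overlapped. In acute livers it measured 323, 336 and 349 in fasted and 306, 339 and 347 in refed GFP libraries, and 234, 190.4 and 289.9 in fasted and 270.3, 301 and 244 FPKM in refed Cre libraries. The difference of the refeeding effect between KO and WT livers was 0.39 ± 0.19 (adjusted p = 0.963). Ornithine transcarbamylase (Otc, chromosome X, 10252359 to 10321024) fell in the average, with a change of -0.15 ± 0.03 (adjusted p = 0.00382).

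The other 5 urea cycle genes gave average refeeding estimates of 0.02 ± 0.08 for Cps1 (chromosome 1, 67123066 to 67230448), 0.01 ± 0.09 for argininosuccinate synthase (Ass1, chromosome 2, 31470270 to 31520670), 0.06 ± 0.04 for Arg1 (chromosome 10, 24915207 to 24927470), 0.09 ± 0.05 for Nags (chromosome 11, 102145587 to 102149476), which makes the activator of Cps1, and 0.10 ± 0.06 for the ornithine carrier Slc25a15 (chromosome 8, 22375550 to 22398621). Their limma adjusted p-values lay between 0.208 and 0.97. Cps1 and Ass1 turned to -0.02 and -0.04 under median-of-ratios scaling, so no direction is given for them. Over the 24 libraries Cps1 ranged from 374 to 765 FPKM, Ass1 from 134 to 342, Arg1 from 768 to 1005, Nags from 31.3 to 44.0 and Slc25a15 from 71.7 to 119.

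**Figure D4:**
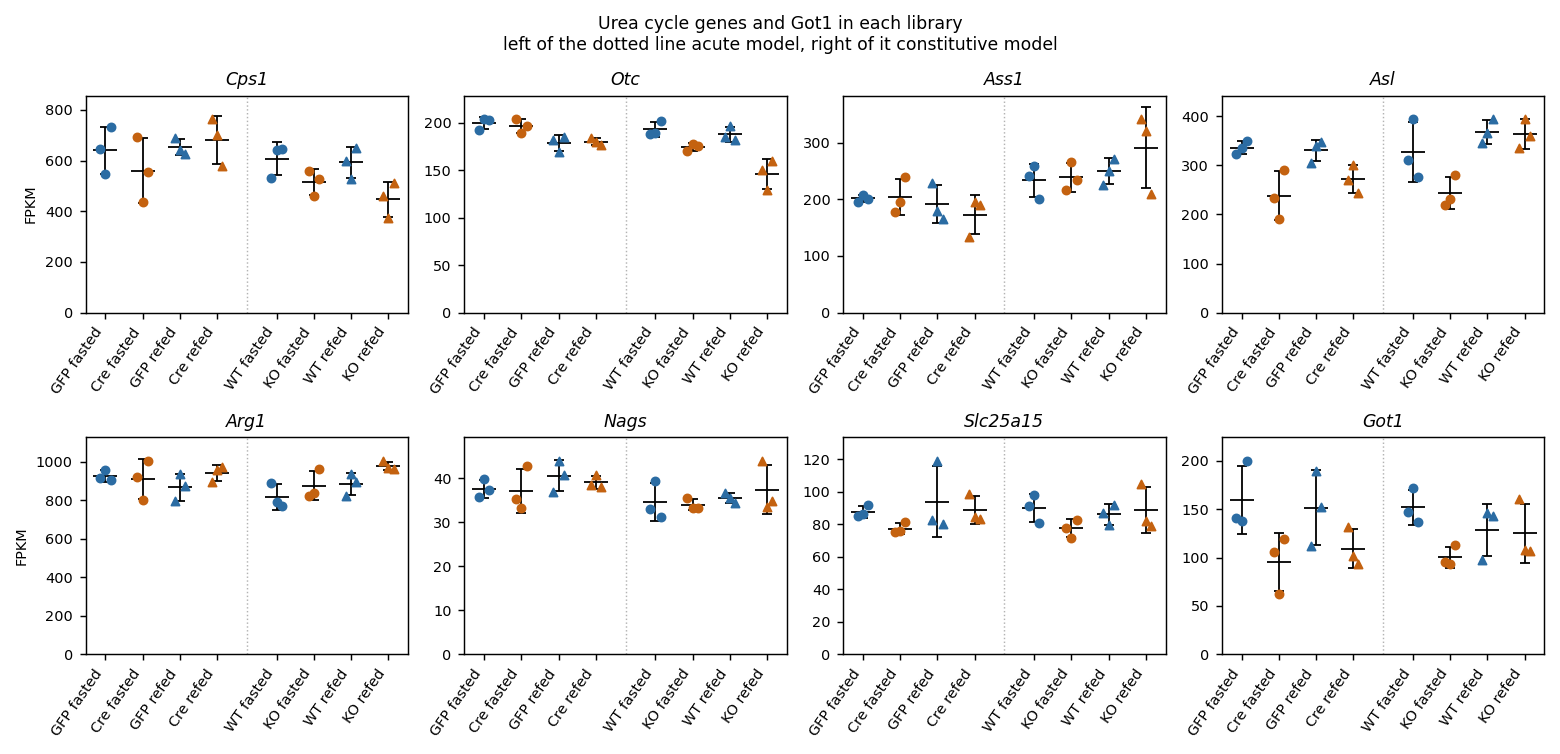
FPKM of the 7 urea cycle genes and of Got1 in each library, by group (blue: GFP or WT, orange: Cre or KO; circles fasted, triangles refed), with the mean and SD of each group in black. Asl and Got1 are lower in fasted Cre and KO livers than in the fasted controls on average, and the Asl values of refed KO and refed WT livers overlap.

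Few of these genes were called with the loss of FoxO1. limma called 0 of 49 members in each of the 4 knockout comparisons, where it called 0.297% (acute fasted), 0.105% (acute refed), 0.0964% (constitutive fasted) and 0.0289% (constitutive refed) of all genes. At an unadjusted p under 0.05 there were 6, 6, 6 and 7 of 49 members in the same order. Of all genes, 1288 and 950 of 10452 in the acute and 681 and 1124 of 10375 in the constitutive model were. With median-of-ratios scaling the share of rising genes among the few calls went from 60% to 40% (constitutive fasted) and from 0% to 20% (constitutive refed). In the average over the 4 comparisons, 4 of 49 members fell and 0 rose, against 1.98% and 1.16% of all genes. There, 15 of 49 members had an unadjusted p under 0.05, against 1682 of 10682 genes. The median log2 change was -0.0040 for the members and 0.0022 for all genes, and 25 of 49 estimates were below 0. Endothelial markers differed in sign between the models beside these counts: with the knockout, 8 of 8 lay below 0 in fasted acute livers (median -0.54) and 7 of 8 in refed ones (-0.13), while 8 of 8 lay above 0 in fasted constitutive livers (0.41) and 5 of 8 in refed ones (0.08). None of them was called by limma, 6, 0, 6 and 1 had an unadjusted p under 0.05 in that order, and their part in the knockout values of Asl, Got1 and other members was not tested. No member had knockout and control libraries apart in 1 direction in all 4 comparisons, which held for 0.271% of all genes downward and 0.0187% upward.

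Asl showed the clearest average knockout change, -0.31 ± 0.07 (adjusted p = 0.0172; 0.00448 to 0.0379 with any 1 library left out). In fasted livers it was 1.41-fold lower with Cre than with GFP (log2 change -0.52 ± 0.14, limma adjusted p = 0.147) and 1.34-fold lower in KO than in WT (-0.41 ± 0.13, 0.5). The Cre and GFP libraries listed above did not overlap in either state, whereas fasted KO and WT libraries overlapped at 1 library, and refed KO and WT livers gave -0.02 ± 0.13 (0.961). Got1 (chromosome 19, 43499753 to 43524605), the cytosolic aspartate aminotransferase, fell in the average, with a change of -0.46 ± 0.12 (adjusted p = 0.0376). It measured 140.4, 137 and 200.1 FPKM in fasted GFP and 106, 62.1 and 119 in fasted Cre libraries, and 147, 172 and 137 in fasted WT and 95.4, 93.0 and 113 in fasted KO libraries. Both fasted comparisons stood apart, 1.67-fold and 1.51-fold lower. In refed livers Got1 measured 112, 189.5 and 153 with GFP, 132, 102 and 93.3 with Cre, 97.9, 146 and 142 in WT and 160.0, 107 and 107 FPKM in KO libraries, with overlap in both models.

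Otc and Amdhd1 were the other calls of the average knockout effect. Otc changed by -0.13 ± 0.03 (limma adjusted p = 0.046). It measured 188, 189 and 202 FPKM in fasted WT and 170.2, 178 and 175 in fasted KO libraries, and 185, 197 and 182 in refed WT and 149.8, 129 and 160.0 in refed KO libraries, apart in both. In acute livers it measured 192, 204 and 203 in fasted GFP, 204, 189 and 197 in fasted Cre, 182, 169 and 185 in refed GFP and 184, 179.7 and 176 FPKM in refed Cre libraries, which overlapped. The knockout effect on Otc in the acute model less that in the constitutive model was 0.25 ± 0.07 (adjusted p = 0.232). Amdhd1, with the values given above, changed by -0.17 ± 0.04 (adjusted p = 0.0358), and its Cre and KO libraries lay below their controls in both fasted comparisons.

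These calls depended on which libraries were kept. Without the 4 deeper acute libraries limma called 0 members in the average knockout effect (log2 changes of Asl -0.29, Got1 -0.47, Otc -0.13 and Amdhd1 -0.12, with adjusted p of 0.105, 0.0854, 0.129 and 0.110). Leaving out 1 library at a time, Otc stayed called without GFP refed 2, WT fasted 1 or KO refed 3 and was lost without any of the other 21 (adjusted p up to 0.0885). Amdhd1 was lost without any of 16 libraries (up to 0.0684) and stayed called without Cre fasted 3, GFP refed 1 or 2, Cre refed 2 or 3, WT refed 3, or KO refed 1 or 2. Got1 was lost without any of 14 (up to 0.0749) and stayed called without GFP fasted 1 or 2, Cre fasted 1 or 3, or replicate 1 of GFP refed, Cre refed, WT fasted, WT refed or KO refed, or KO fasted 3.

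The members with the largest knockout estimates in single comparisons were not called. Besides Asl and Got1, the 3 largest estimates of each comparison were Hal in fasted acute livers (-0.51 ± 0.17, limma adjusted p = 0.239), Cbs and Mat1a in refed acute livers (0.39 ± 0.12, 0.318; -0.38 ± 0.15, 0.464), Oat in fasted constitutive livers (0.53 ± 0.21, 0.673), and Cps1, Otc and Sdsl in refed constitutive livers (-0.41 ± 0.13, 0.399; -0.36 ± 0.08, 0.182; 0.35 ± 0.11, 0.397). The groups did not overlap for any of these except Oat. As the members were picked by the size of the same change, this is no separate support. Of all genes, 956 and 998 of 10452 were apart upward and downward in fasted and 645 and 680 in refed acute livers. In constitutive livers 780 and 481 of 10375 were apart when fasted, and 705 and 882 when refed. On the upper side of the average, Haao of tryptophan breakdown (0.13 ± 0.04, adjusted p = 0.0866), Oat (0.29 ± 0.09, 0.112), glutamate dehydrogenase (Glud1, 0.15 ± 0.05, 0.114) and Cbs (0.18 ± 0.06, 0.137) came closest and were not called. Among the urea cycle genes, Cps1 (-0.20 ± 0.08), Ass1 (0.02 ± 0.09), Arg1 (0.08 ± 0.04), Nags (-0.01 ± 0.05) and Slc25a15 (-0.11 ± 0.06) were not called. All 5 genes of proline, ornithine and glutamate breakdown had average knockout estimates above 0, between 0.05 and 0.29, with 0 called.

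Knockout and refeeding effects were not shown to depend on each other or on the model. limma called 0 members in the interaction of knockout with refeeding in acute livers, with 2 at an unadjusted p under 0.05, and 0 in constitutive livers, with 1, where 0.0287% and 0% of all genes were called. It called 0 members for the difference of the knockout effect between the models, with 3 at an unadjusted p under 0.05, and 0 for the difference of the refeeding effect, with 10, against 0% and 1.43% of all genes. The smallest adjusted p among members in these 4 tests was that of Amt for the refeeding effect. The median difference of the refeeding effect was 0.03 for members and 0.09 for all genes, and these became -0.07 and 0.00 with median-of-ratios scaling, under which the share of calls above 0 went from 85.0% to 32.1%.

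Other genes of amino acid handling were read from lists of 56 enzymes, 10 carriers and 10 regulators that are not members. After refeeding, 16 of 52 tested enzymes fell and 2 rose in the average, 3 of 9 carriers fell, and 1 of 10 regulators rose, where 10.4% of all genes fell and 19.9% rose. The largest changes were those of Ppm1k, the phosphatase that activates branched chain ketoacid dehydrogenase (-0.75 ± 0.09, limma adjusted p = 6.68e-06), Dhtkd1 of lysine and tryptophan breakdown (-0.47 ± 0.14, 0.0163), the carrier Slc43a1 (-0.46 ± 0.07, 9.24e-05), the branched chain aminotransferase Bcat2 (-0.39 ± 0.08, 0.00169), the asparaginase Aspg (-0.39 ± 0.06, 9.57e-05) and, upward, Gatm of creatine synthesis (0.35 ± 0.08, 0.00422). Gatm was called in Cre livers alone among the single refeeding comparisons (1.07 ± 0.13, limma adjusted p = 0.00471). Its refeeding effect was also called as higher in the acute than in the constitutive model (0.76 ± 0.17, 0.0327), so its average does not describe both models. In the average knockout effect 5 enzymes fell and 3 rose, 2 carriers fell and 2 regulators fell, where 1.98% of all genes fell and 1.16% rose. The largest were Csad of taurine synthesis (0.72 ± 0.18, 0.0303), the aromatic amino acid carrier Slc16a10 (-0.57 ± 0.07, 8.79e-05), Acmsd of tryptophan breakdown (-0.50 ± 0.11, 0.0122), the coactivator Ppargc1a (-0.39 ± 0.08, 0.00677), the carrier Slc38a2 (-0.38 ± 0.10, 0.0426) and the transcription factor Klf15 (-0.38 ± 0.08, 0.0114). Klf15, known for driving amino acid catabolism in fasting, was also called in fasted acute livers (-0.90 ± 0.16, 0.0482).

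Markers of other cell types moved with refeeding. With the knockout, endothelial markers lay below 0 in fasted acute livers and above 0 in fasted constitutive livers. In fasted constitutive livers 7 of 8 Kupffer and macrophage and 8 of 8 stellate and fibroblast markers also lay above 0, with 0 called. In fasted acute livers 2 of 8 and 4 of 8 did. The part of these markers in the results was not tested. Fewer cells of a type and less RNA per cell cannot be told apart in whole liver. In the average, 4 of 8 endothelial, 4 of 8 Kupffer and macrophage and 6 of 8 stellate and fibroblast markers rose and none fell, where 19.9% of all genes rose. In KO livers alone, 7 of 8 endothelial markers were below 0 after refeeding and 1 was called downward. Endothelial markers summed to 39.7 to 79.0 FPKM in fasted and 72.1 to 95.3 in refed GFP, 24.01 to 48.8 and 58.0 to 87.1 in Cre, 39.8 to 45.6 and 41.3 to 50.6 in WT, and 56.6 to 64.5 and 50.5 to 53.7 in KO livers. The fasted to refed sums of the Kupffer and macrophage list were 33.8 to 51.6 and 49.3 to 101 in GFP, 35.2 to 53.1 and 28.6 to 181 in Cre, 54.2 to 101 and 105 to 115 in WT, and 96.4 to 133 and 104 to 144 FPKM in KO livers. Those of the stellate and fibroblast list were 41.9 to 90.2 and 82.5 to 91.4 in GFP, 40.7 to 55.8 and 77.5 to 98.6 in Cre, 50.1 to 57.9 and 66.8 to 97.7 in WT, and 62.5 to 85.4 and 73.9 to 79.5 FPKM in KO livers. No gene of these 3 lists was under 0.1 FPKM in every library. The 7 hepatocyte markers had 0 calls in the average refeeding effect and a median change of -0.03. In the average knockout effect 1 of the 7, Apoa1, fell (-0.20 ± 0.05, limma adjusted p = 0.0229), where 1.98% of all genes fell. There, 3 of the 7 had an unadjusted p under 0.05. The cholangiocyte, neutrophil and lymphocyte, pancreatic acinar and adipocyte lists had 0 calls in both averages, and of their genes Cpa1, Pnlip, Prss1, Lep and Plin1 were under 0.1 FPKM in every library.

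Markers of the zones of the liver lobule were read in the same way. Of 8 pericentral genes, a list that holds Oat, 3 fell in the average refeeding effect and 2 in the average knockout effect. Of all genes, 10.4% and 1.98% fell. The 3 were Oat itself, Lgr5 and Axin2, and the 2 were Cyp2e1 and Glul. Their sum was 6731 to 7438 and 6186 to 6776 in fasted and refed GFP, 5369 to 6224 and 4418 to 5437 in Cre, 4739 to 6649 and 5595 to 5955 in WT, and 5244 to 5758 and 3843 to 4659 FPKM in KO livers. Of 5 periportal genes, a list that holds Hal, 1 fell in each average: Hal itself after refeeding, so that none of the other 4 was called, and Pck1 with the knockout. Their sum was 2143 to 2504 and 1856 to 1906 in GFP, 1468 to 2067 and 1319.6 to 2002 in Cre, 2345 to 2442 and 2175 to 2385 in WT, and 1808 to 2415 and 1733 to 2382 FPKM in KO livers. No gene of either list was under 0.1 FPKM in every library. Whether these values bear on Hal, Oat or the other members was not tested.

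**Figure D5:**
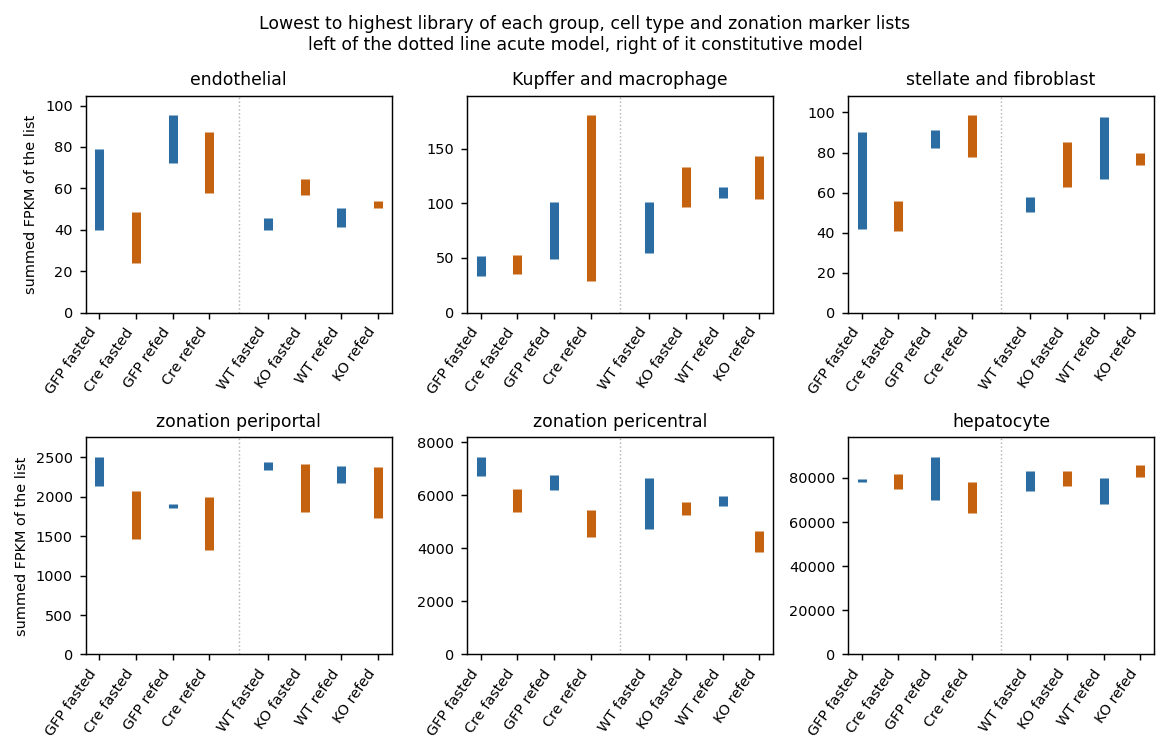
Summed FPKM of 6 marker lists, drawn as a bar from the lowest to the highest of the 3 libraries of each group (blue: GFP or WT, orange: Cre or KO). Endothelial sums are higher in refed than in fasted Cre livers, and pericentral sums of refed KO livers lie below those of the other constitutive groups.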

How the data were processed

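RNA-seq of mouse liver (stranded mRNA libraries, per the labels' protocols) gave 24 libraries in 8 groups of 3. The authors deposited FPKM values per gene with the lower and upper bounds of an interval, and their processing notes name HISAT2, Cufflinks, Cuffdiff and build mm10. Versions, annotation and the strand setting of the counting are not given in the sources used here. Reads were not used. The bounds lie 2 SD from each value, and (FPKM/SD) squared was taken as the implied number of fragments.

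The tests used limma 3.58.1 in R 4.3.3 on log2(FPKM + 1), so fold changes of low genes are understated on that scale, while folds printed as N-fold are ratios of mean FPKM. Genes needed an FPKM of 1 or more in at least 3 fitted libraries (10452 genes in the acute fit, 10375 in the constitutive fit and 10682 in the joint fit used for averages and differences between models). Of 23746 loci, 14 whose quantification failed in some library were left out. There were 14 contrasts, p-values were Benjamini-Hochberg adjusted over all genes of a fit, and a call is an adjusted p under 0.05. Groups are called apart where their 3 and 3 libraries do not overlap. The scripts were tested on simulated data.

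The members, marker lists and pathway lists were chosen with earlier results of these data known. Named were all members called in any contrast, the 7 urea cycle genes, the 3 members with the largest change in each knockout comparison, the 4 with the smallest p in each direction of the averages, Foxo1, and at most 6 other pathway genes called per average; genes outside this rule are given by range, or to complete a pathway. Alternatives were rescaling by the median of ratios, a pseudocount of 0.1, fits of the compared groups alone, array weights, no filter, replicate number as a block, a threshold of 0.01, leaving out the 4 deeper acute libraries and leaving out each library. Promoter sequences came from RefSeq (GRCm38.p6); members without an entry were Cth, Sdsl, Asl, Gls2, Cps1, Mat1a, Arg1, Gpt, Dbt, Mut and Kynu.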

Additional observations from a re-analysis of the deposited data

Results flagged for a closer look

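For 3 genes, knockout effects had opposite signs in 2 comparisons, with every library of each on its own side. Gcdh, of lysine breakdown, was higher in all fasted Cre libraries than in all fasted GFP libraries (0.07 ± 0.07) and lower in all refed ones (-0.12 ± 0.07), a difference of 0.195 on the log2 scale. limma's test of the acute interaction gave -0.19 ± 0.10 with an adjusted p of 0.809. Kynu, the kynureninase of tryptophan breakdown, was higher with Cre in refed acute livers (0.24 ± 0.10) and lower in fasted KO livers (-0.27 ± 0.10), a difference of 0.512. Cth, of transsulfuration, did the same (0.19 ± 0.12 and -0.20 ± 0.11), a difference of 0.395. For Kynu and Cth these differences were not tested themselves. The difference of the average knockout effect between models was 0.39 ± 0.10 (adjusted p = 0.208) and 0.22 ± 0.12 (0.535). None of these single effects was called. How many of all genes show such a pattern was not counted. In the acute model, 956 and 998 of 10452 genes were apart upward and downward in fasted livers and 645 and 680 in refed livers. In fasted constitutive livers 780 and 481 of 10375 genes were.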

How the results depend on the processing

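Over the results that were called and named, direction held under all planned settings, and 34 of 34 stayed called with array weights or a pseudocount of 0.1, 32 with median-of-ratios scaling and 28 without the filter; with the compared groups alone 4 of 11 did, and without the deeper acute libraries 16 of 25. The members called in the average knockout effect went from 4 to 7 with array weights and to 0 at a threshold of 0.01 or without the deeper acute libraries. For refeeding in GFP livers the 2 calls became 5 with median-of-ratios scaling and 0 with the compared groups alone, without the filter or at 0.01. For WT livers 2 became 5 with array weights or median-of-ratios scaling and 0 with the compared groups alone or at 0.01, and for KO livers 7 became 4 alone and 2 at 0.01. In Cre livers 0 became 1 with array weights and 2 with median-of-ratios scaling. For the difference of the refeeding effect between models 0 became 1 with array weights or without the deeper acute libraries. The average refeeding effect, with 19 calls, gave 13 at 0.01 and 27 with median-of-ratios scaling. With 1 library left out, calls ran from 1 to 5 (average knockout), 16 to 24 (average refeeding), 0 to 2 (GFP), 0 to 1 (WT), 2 to 10 (KO) and 0 to 1 (difference of the refeeding effect between models). For GFP livers 0 remained without any library but GFP refed 3, for WT livers 0 without any but WT fasted 3, and for KO livers 2 without KO fasted 1 and 3 without KO fasted 2 or KO refed 2. The average knockout effect kept 1 call without GFP fasted 3, KO fasted 1, KO fasted 2, WT fasted 3 or WT refed 2, and 1 or 2 without any of 16 libraries in all. The single call for the difference of the refeeding effect came without Cre fasted 1, GFP fasted 3 or GFP refed 2. The causes were not tested.

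Same-numbered libraries did not deviate together throughout (correlations of -0.349 to 0.378 in acute and -0.156 to 0.281 in constitutive livers). Above 0.1 were 5 of 18 acute and 8 of 18 constitutive pairs of libraries. These values do not settle whether the numbers pair libraries. With the replicate block, 32 of 34 called results stayed called, Otc and Got1 lost their average knockout calls, and members called became 3 for average knockout, 20 for average refeeding and 3 for refeeding in WT livers.

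Sign changes concerned values near 0: with 1 library left out average knockout ran from -0.0131 to 0.0753 for Ass1 and from -0.0366 to 0.0166 for Nags, and Nags gave 0.0036 without the deeper acute libraries; for average refeeding Cps1 gave -0.0207 and Ass1 -0.0356 with median-of-ratios scaling, and ran from -0.0207 to 0.0614 and from -0.0283 to 0.0608 with 1 library left out. In 8 acute libraries depth was at most 7.64 M fragments, which limits Sdsl and Foxo1 most among the genes described.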
